A study of Mus musculus with 6 samples.

Results

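The genes on both sides of Ash1l were compared between 3 Ash1l heterozygous (Ash1l het) and 3 wild type (WT) libraries of mouse dorsal striatum, from C57BL/6 animals that the labels put at 1 year of age. The members are the genes lying wholly within 1.5 Mb on each side of Ash1l, with a mean of at least 10 counts over the 6 libraries and Ash1l itself left out. This rule, which uses position and mean count and not the genotype, gave 100 genes out of 34745 in the deposited table. The window, GRCm38 chromosome 3 from 87450622 to 90579375, holds 141 other rows, of which 41 fell below the count minimum. Of the 100 members, 42 lie wholly before Ash1l, 1 (Dap3, counted with the side before) overlaps its start and 57 lie after its end; 90 are protein coding in GENCODE M21, and 99 passed the expression filter. The pseudogene Gm43712 did not pass it, with 9, 15 and 10 counts in Ash1l het against 6, 15 and 10 in WT.

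Ash1l encodes a histone methyltransferase that acts on lysine 36 of histone H3, a mark of active chromatin that opposes Polycomb repression. A mutant allele is inherited together with the DNA that flanks it, and genes beside one another can share start regions, enhancers and chromatin domains. The neighbours are therefore the genes in which a difference tied to the place of the allele, and not to the protein, would be looked for. The segment is gene dense and mixed in function, and holds genes of the axon, the extracellular matrix, calcium binding, lipid synthesis and RNA processing. The labels name the genotype alone, so the design of the allele and its place in the gene were not known here.

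The libraries held 12080663 to 18798694 counts. Although male animals are named in the labels, Xist, which the inactive X of females transcribes, lay between 1901 and 2984 CPM (counts scaled to the size of the library) in all 6 libraries, and 4 Y-linked genes together had 0 counts in 5 libraries and 1 in WT replicate 1. Spiny projection neuron markers were present in every library, with 10 of 10 tested and a summed level of 7356 to 9074 CPM in Ash1l het and 7809 to 8917 CPM in WT. By sign 8 of them were lower, with a median log2 fold change of -0.15 over the 10. An unadjusted edgeR p under 0.05 was seen in 3, which differed in direction. Adora2a (-0.42) and Bcl11b (-0.33) were lower, and Tac1 (0.42) was higher. All 5 blood cell markers were higher, at sums of 56.1 to 123 CPM in Ash1l het and 23.0 to 35.4 CPM in WT. Their median log2 fold change was 2.04, and all 5 had an unadjusted edgeR p under 0.05, with adjusted p-values of 0.690 or higher. Gfap reached 733 CPM in Ash1l het replicate 2 and 412 CPM in replicate 1 against at most 154 CPM in the other 4. Nothing in the labels says that the samples are separate animals, so the p-values may rest on technical spread alone.

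No flanking gene passed the test. With the quasi-likelihood test of edgeR over all 15267 genes, 0 of the 99 tested members had an adjusted p under 0.05, where 0.0131% of all genes did, and the smallest adjusted p among the members was 0.857. At an unadjusted p under 0.05 there was 1 member, Trim46, which was lower, where 5.78% of all genes lay under that value, 2.67% lower and 3.1% higher. DESeq2 also called 0 members, with 1 at an unadjusted p under 0.05, where 3.75% of all genes lay under it. The limma-voom test called 0 members, with 2 at an unadjusted p under 0.05, against 5.78% of all genes. The median log2 fold change (Ash1l het over WT) of the members was -0.02, against 0.01 for all genes tested, and 52 members were lower by sign and 47 higher. The fold changes ran from -0.48 for Slc27a3, a fatty acid transport protein, to 0.68 for S100a13. The member counts summed to 4320, 4746 and 4603 CPM in Ash1l het and 4649, 4542 and 4684 CPM in WT, so the groups overlapped.

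The intervals give what the comparison could have missed. For 87 of the 99 members the 95% interval of the fold change lay within 2-fold in both directions, and 80.6% of all genes tested had such an interval. For 58 members it lay within 1.5-fold, against 55.1% of all genes. A loss to 50% of WT lay outside the interval of 95 of the 99 members. Few reads went with wide intervals in many members, but Hapln2, S100a16 and Gm42644 had over 100 counts and an interval that passed 2-fold. Among the 21 tested members with a mean under 100 counts the median SE was 0.35, and among the 78 with at least 100 counts it was 0.14. An absolute log2 fold change over 0.5 was seen in 3 members (S100a13, Muc1 and Gm42644), where 8.08% of all genes exceeded that size.

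Ash1l itself had 281, 198 and 253 CPM in Ash1l het, against 308, 295 and 293 CPM in WT, and each Ash1l het library lay below each WT library. The log2 fold change was -0.29 (SE 0.13; edgeR unadjusted p = 0.0577, adjusted p = 0.858), so the targeted gene did not pass either. A two-sided exact permutation test on Ash1l CPM returned p = 0.1, and no smaller p can come from 3 against 3 libraries. The size of the Ash1l difference rested partly on Ash1l het replicate 2, without which the log2 fold change was -0.16. Of the members, 5 had a more negative fold change than Ash1l and 3 a smaller unadjusted p.

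Dap3, which encodes a protein of the mitochondrial ribosome, is the nearest gene of all. It runs on the opposite strand (chromosome 3, 88951181 down to 88920803), and its annotated start lies inside the first part of Ash1l (88950622 to 89079375), so the pair overlaps head to head. Dap3 stood at 29.6, 35.1 and 29.7 CPM in Ash1l het and 34.3, 27.5 and 34.6 CPM in WT. The groups overlapped, and the fold change on the log2 scale, -0.03, had an SE of 0.13 (edgeR adjusted p = 0.983). The log2 ratio of Ash1l to Dap3 counts was 3.25, 2.49 and 3.09 in Ash1l het and 3.17, 3.43 and 3.08 in WT, with p = 0.5 by a two-sided exact permutation test. The kit was stranded per the labels, but no source used here tells whether reads were assigned by strand, so reads from the overlap could be shared between the pair.

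On the side before Ash1l, Msto1 and Gon4l follow. Msto1, whose product acts in mitochondrial shape, had 9.59, 10.8 and 12.4 CPM in Ash1l het against 11.1, 13.9 and 12.7 CPM in WT. Gon4l, a nuclear protein of transcriptional repression, had 64.0, 57.6 and 70.6 CPM in Ash1l het against 68.4, 73.3 and 74.0 CPM in WT. Their log2 fold changes were -0.20 (SE 0.16) and -0.17 (SE 0.11), and in both genes replicate 3 of Ash1l het fell between the WT values. The noncoding gene 1500004A13Rik and the pseudogene 5830417I10Rik, which overlap on opposite strands, stood at log2 fold changes of -0.10 (SE 0.10) and -0.28 (SE 0.13; edgeR unadjusted p = 0.0608). Syt11, a synaptotagmin of vesicle membranes, was the member with the highest level per length, at a mean of 57.7 FPKM. It had 584, 603 and 588 CPM in Ash1l het and 612, 612 and 626 CPM in WT, so the groups did not overlap, but the log2 fold change was only -0.06 (SE 0.09; edgeR adjusted p = 0.943).

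**Figure D1:**
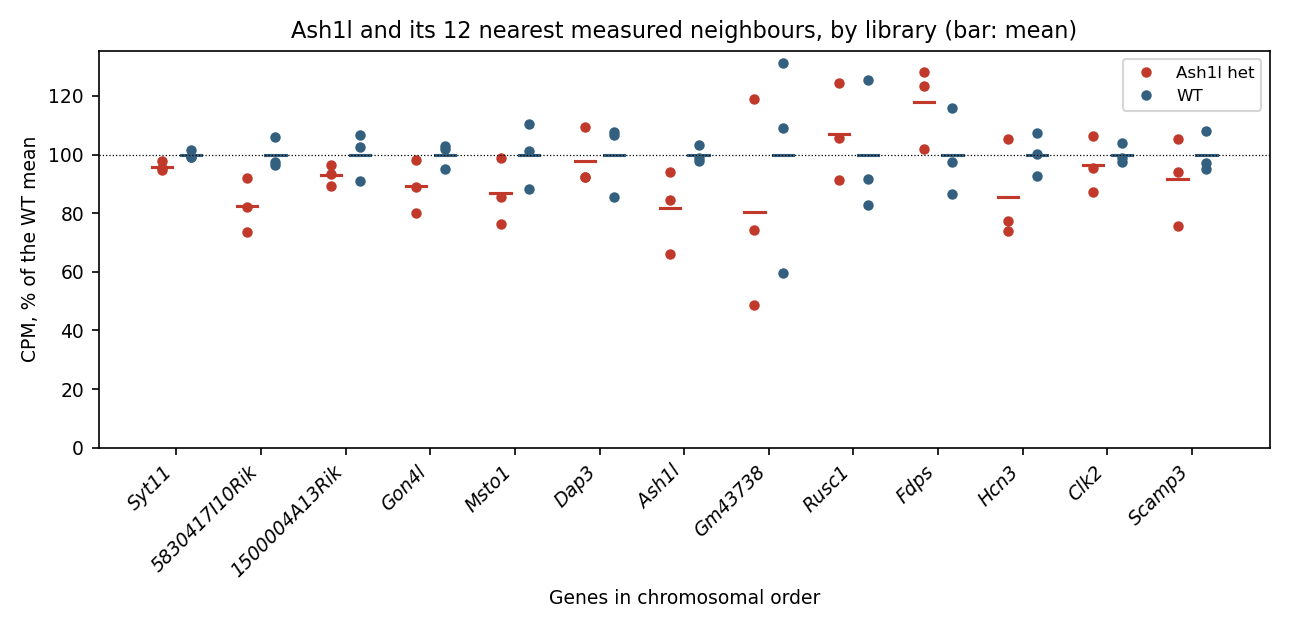
CPM of Ash1l and of its 6 nearest tested neighbours on each side, in chromosomal order, as a percentage of the WT mean of each gene; points are single libraries (3 Ash1l het, left, and 3 WT, right) and bars are means. Ash1l lies between 66.2% and 94.2% in Ash1l het, Dap3 between 92.3% and 109%, and in Syt11, 5830417I10Rik and Ash1l the groups do not overlap.

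On the side after Ash1l, Gm43738 is a gene model that shares its strand with, and overlaps, both Rusc1 and Fdps, so reads could be split among the 3. It was near the count minimum, with 0.612, 1.5 and 0.935 CPM in Ash1l het against 1.66, 1.37 and 0.753 CPM in WT. Rusc1, an adaptor protein, had 58.9, 68.2 and 80.2 CPM in Ash1l het against 53.4, 59.2 and 81.0 CPM in WT (a log2 fold change of 0.10, SE 0.17). Fdps, the farnesyl diphosphate synthase of the isoprenoid pathway, had 14.3, 14.9 and 11.8 CPM in Ash1l het against 10.02, 11.3 and 13.4 CPM in WT (a log2 fold change of 0.23, SE 0.17). In each of these genes the groups overlapped. The pacemaker channel gene Hcn3, the splicing factor kinase gene Clk2 and Scamp3, of secretory carrier membranes, stood at log2 fold changes of -0.22, -0.05 and -0.12, each with an SE of 0.11 to 0.18.

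Grouped by the gap to Ash1l, the nearest genes leaned to lower values by small amounts. Of the 9 genes with a gap under 100 kb, 7 were lower by sign and 2 higher, with a median log2 fold change of -0.12. At 100 to 250 kb 11 of 17 were lower by sign, with a median of -0.06. Beyond that the medians were 0.04 at 250 to 500 kb (8 of 18 lower), 0.00 at 0.5 to 1 Mb (14 of 29 lower) and 0.01 at 1 to 1.5 Mb (12 of 26 lower). Among all genes tested 48.6% were lower by sign. None of the 9 nearest genes had groups that did not overlap, and the lean was carried by libraries unequally. The median deviation of those 9 genes from their 6-library mean, on log2(CPM + 0.5), was -0.16, -0.02 and 0.06 in Ash1l het against -0.01, 0.11 and 0.12 in WT. Ash1l het replicate 3 therefore lay among the WT libraries, and with Ash1l het replicates 1 and 2 both left out 5 of the 9 were lower by sign. Across the 99 genes, Spearman's rank correlation of the gap with the log2 fold change was 0.11 and with its absolute size 0.0061, given as a description, since the genes share the same 6 libraries.

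**Figure D2:**
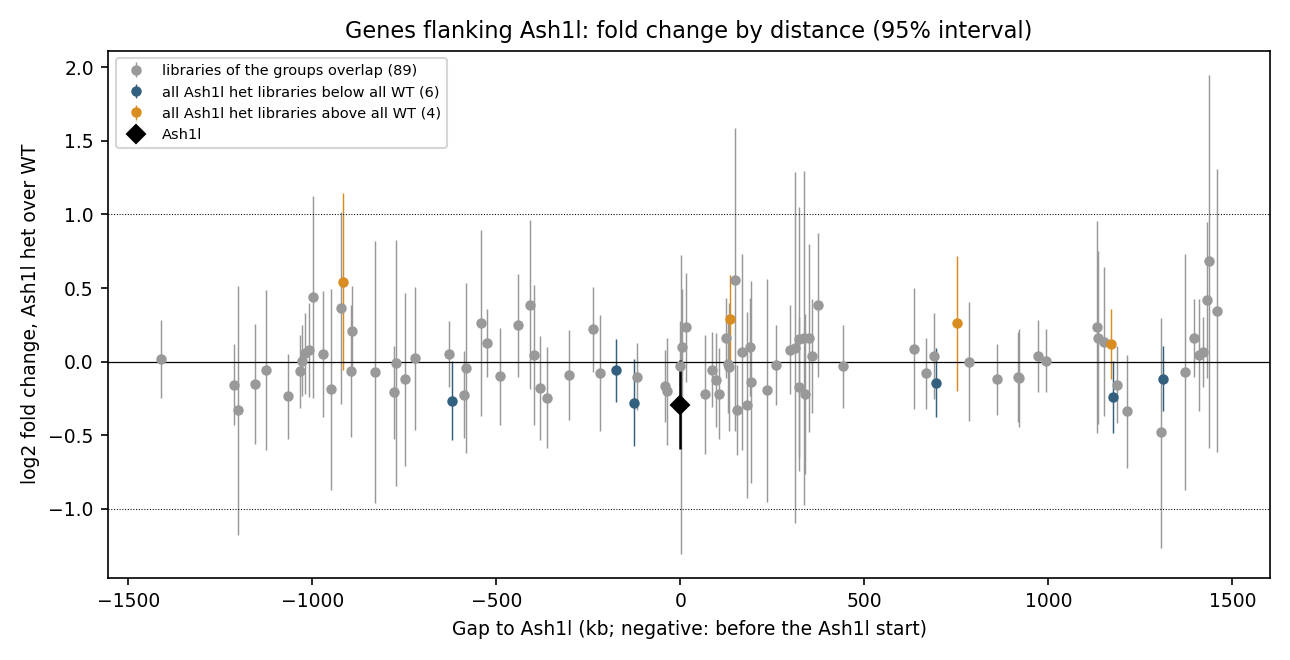
Fitted log2 fold change (Ash1l het over WT, vertical axis) with its 95% interval for the 99 tested flanking genes and Ash1l, against the gap to Ash1l in kb (horizontal axis, negative before the Ash1l start); dotted lines mark a 2-fold difference and colours mark whether the groups overlap. The points scatter about 0 along the whole window, from -0.48 to 0.68, and the separated genes are spread over both sides.

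The difference between the sides was not tested. Before Ash1l 26 of 43 genes were lower by sign, with a median log2 fold change of -0.06, and after Ash1l 26 of 56, with a median of 0.02. In Ash1l het replicate 1 the median deviation was below 0 in every distance class, from -0.16 to -0.07, while in each of the other 5 libraries its sign differed between classes. Over all 99 genes it was -0.10 in that replicate, 0.05 and 0.06 in the other 2 Ash1l het libraries, and -0.01, 0.01 and 0.04 in WT. The median over all genes tested was 0.01 in every library. For members with at least 100 counts the replicate 1 value was -0.06, against 0.01 over other genes of that depth and 0.07 over the rest of chromosome 3. Ash1l het replicate 1 also had the lowest spiny projection neuron marker sum, at 7356 CPM, and whether that has a part in its low members was not tested.

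**Figure D3:**
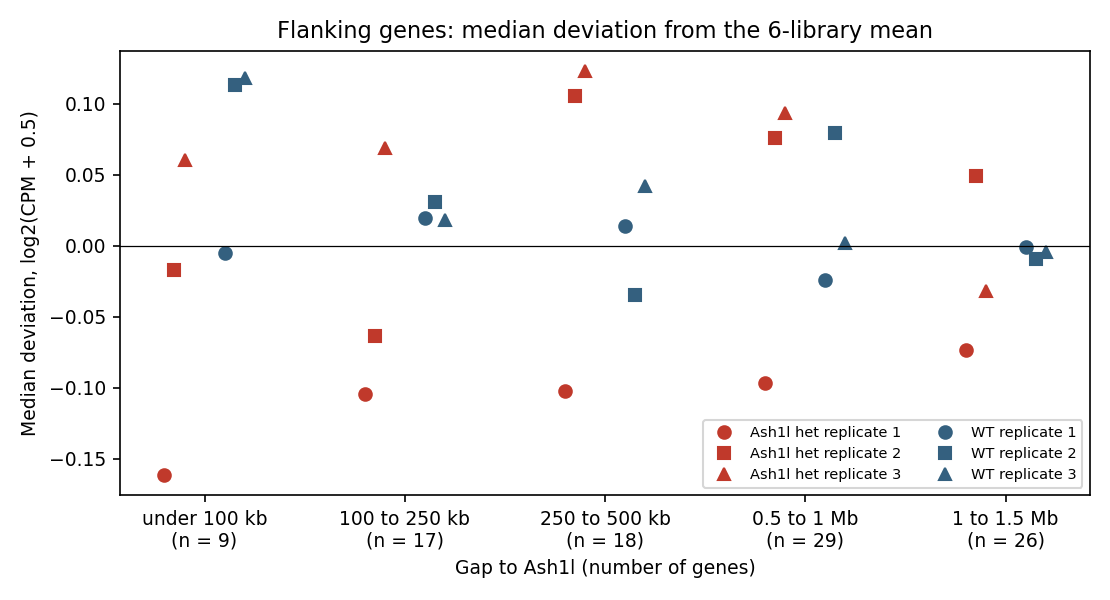
Median deviation of the flanking genes from their 6-library mean, on log2(CPM + 0.5), by gap to Ash1l; red symbols are the 3 Ash1l het libraries, blue symbols the 3 WT libraries, and symbol shape gives the replicate number. Ash1l het replicate 1 is the lowest in each distance class, from -0.16 to -0.07, while replicates 2 and 3 lie above it on both sides of 0.

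In 10 members every Ash1l het library lay on one side of every WT library, which is 10.1% of those tested, against 11.7% of all genes. There were 6 below, where 5.53% of all genes were, and 4 above, where 6.18% of all genes were. Crtc2, a coactivator of the transcription factor CREB, had 26.5, 29.9 and 30.6 CPM in Ash1l het against 34.0, 34.5 and 34.3 CPM in WT, with a log2 fold change of -0.24 (SE 0.11; edgeR unadjusted p = 0.0549). Glmp, a lysosomal membrane protein, had 22.7, 23.2 and 24.2 CPM in Ash1l het against 25.4, 30.9 and 28.0 CPM in WT (a log2 fold change of -0.27, SE 0.12). 5830417I10Rik had 19.9, 15.9 and 17.8 CPM in Ash1l het against 20.9, 23.0 and 21.1 CPM in WT. The WT values of Crtc2 lay close together, while those of Glmp were spread more widely than its Ash1l het values. Besides Syt11, the other members below were Ube2q1, a ubiquitin-conjugating enzyme, at -0.14 (SE 0.10), and Ints3, an Integrator subunit, at -0.12 (SE 0.10), both named after their values were seen.

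Among the 4 above, Thbs3, a thrombospondin of the extracellular matrix, had 15.03, 18.1 and 17.7 CPM in Ash1l het against 14.6, 13.2 and 14.01 CPM in WT (a log2 fold change of 0.29, SE 0.14; edgeR unadjusted p = 0.0622). Thbs3 overlaps Mtx1 on the opposite strand. The unclassified transcript Gm42644 had 17.9, 17.3 and 17.3 CPM in Ash1l het against 13.2, 6.93 and 15.9 CPM in WT. Its log2 fold change of 0.54 (SE 0.26) was 0.26 without the low WT replicate 2 and 0.81 without WT replicate 3. The zinc transporter gene Slc39a1 stood at a log2 fold change of 0.12 (SE 0.11) and the adaptor gene She, named after its values were seen, 0.26 (SE 0.20). The edgeR adjusted p was 0.858 or higher in all 10 members.

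Trim46, which organises the parallel microtubules of the axon initial segment, had the smallest p of the members, yet its groups overlapped. It had 73.5, 88.9 and 105 CPM in Ash1l het against 115, 117 and 103 CPM in WT. The 2 lowest values were Ash1l het replicates 1 and 2, and replicate 3 was above WT replicate 3. The log2 fold change was -0.33 (SE 0.14; edgeR unadjusted p = 0.0376, adjusted p = 0.857). With single libraries left out it ran from -0.47, without Ash1l het replicate 3, to -0.21, without Ash1l het replicate 1. It was -0.10 with Ash1l het replicates 1 and 2 both left out. Krtcap2, whose start overlaps that of Trim46 head to head, had 6.19, 14.3 and 11.4 CPM in Ash1l het against 7.87, 11.5 and 11.1 CPM in WT. The Krtcap2 groups overlapped, with a log2 fold change of 0.07 (SE 0.29).

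**Figure D4:**
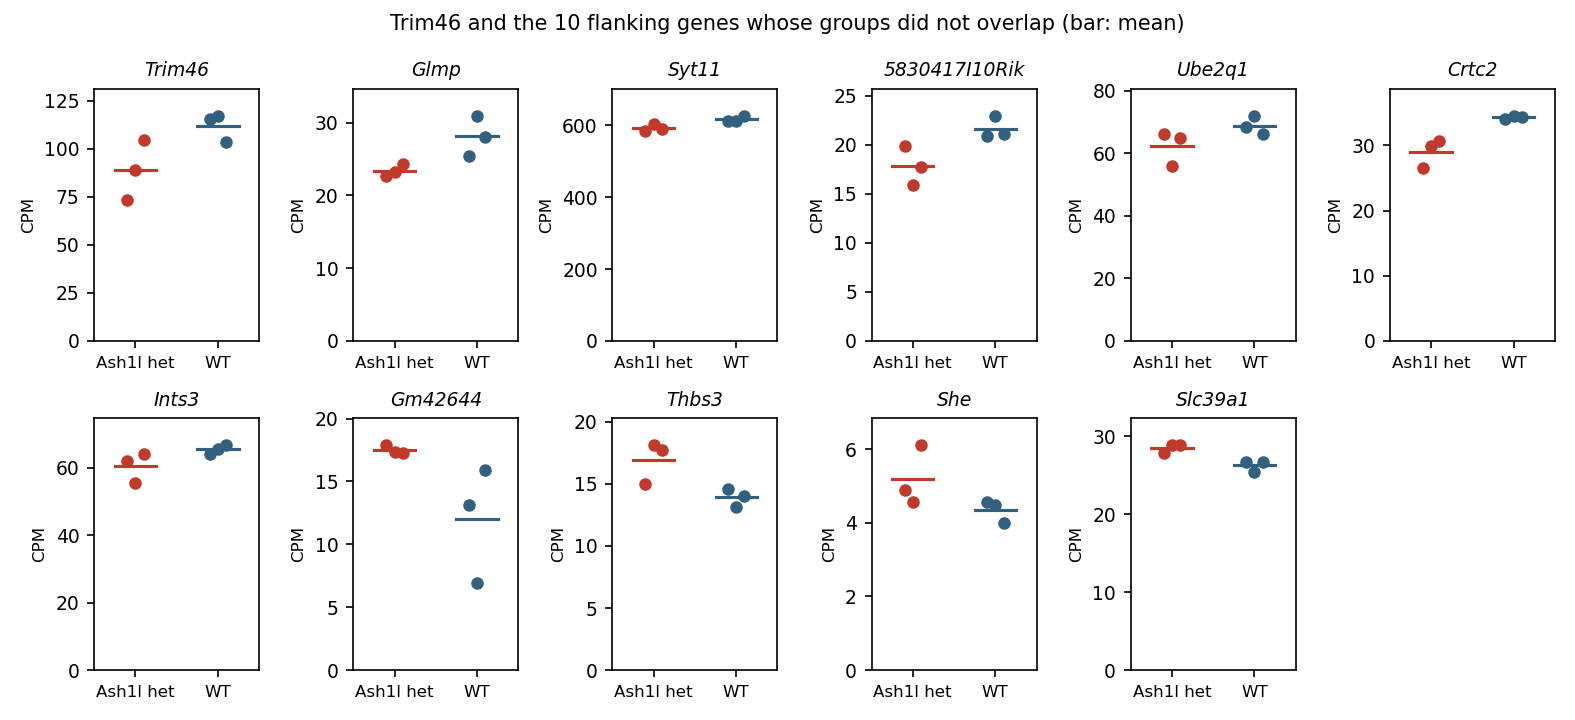
CPM per library (points) and group mean (bars) for Trim46 and for the 10 flanking genes whose groups did not overlap, with 3 Ash1l het libraries on the left and 3 WT libraries on the right of each panel. The difference is small against the level in Syt11, at 584 to 603 CPM in Ash1l het and 612 to 626 CPM in WT. Other separated genes differ more, with log2 fold changes from -0.28 in 5830417I10Rik to 0.54 in Gm42644.

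By role list, growth factor receptor and ephrin genes, with which Hdgf, Shc1 and She were listed, had 6 of 7 lower by sign. Their median log2 fold change was -0.14. Efna3, an ephrin ligand of Eph receptors, had 20.2, 39.9 and 52.0 CPM in Ash1l het against 41.6, 48.0 and 39.0 CPM in WT, and its lowest value stood in Ash1l het replicate 1. Hdgf, a chromatin-associated growth factor, stood at a log2 fold change of -0.07 (SE 0.11). Ion channel and synapse genes had 6 of 8 lower by sign, with a median of -0.07. Among them Kcnn3, a calcium-activated potassium channel of small conductance, stood at -0.03 (SE 0.13). Of the 15 genes in these 2 lists 0 were called and 1, Trim46, had an unadjusted p under 0.05.

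Extracellular matrix and myelin genes had 3 of 5 higher by sign, with a median of 0.29. Hapln2, a link protein that oligodendrocytes place at nodes of Ranvier, had 56.2, 72.9 and 46.8 CPM in Ash1l het against 65.0, 34.1 and 37.7 CPM in WT. The 8 oligodendrocyte markers summed to 7249, 8242 and 5618 CPM in Ash1l het and 6875, 5492 and 6045 CPM in WT, and the lowest Hapln2 and the lowest marker sum were both in WT replicate 2. Their part in the Hapln2 values was not tested. Bcan, the proteoglycan brevican, had 72.5, 137 and 161 CPM in Ash1l het against 117, 161 and 145 CPM in WT, again with its lowest value in Ash1l het replicate 1. Adam15, a membrane protease, stood at -0.02 (SE 0.12). In bulk tissue, fewer cells of a type and less RNA per cell cannot be told apart.

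The S100 genes, which encode small calcium-binding proteins, lie at the far end of the window, with gaps of 1432 to 1458 kb. All 3 tested were higher by sign, and in all 3 the highest value stood in Ash1l het replicate 2. S100a1 had 30.3, 46.9 and 23.3 CPM in Ash1l het against 26.3, 24.1 and 24.7 CPM in WT. S100a13 had 3.20, 11.3 and 2.97 CPM in Ash1l het against 2.81, 3.95 and 3.99 CPM in WT. S100a16 had 29.0, 45.9 and 15.9 CPM in Ash1l het against 31.0, 21.1 and 19.4 CPM in WT. The groups overlapped in each, and without Ash1l het replicate 2 the log2 fold changes of S100a1, S100a13 and S100a16 were 0.09, -0.23 and -0.09, against 0.42 (SE 0.23), 0.68 (SE 0.54) and 0.35 (SE 0.40) with it. The same library had the highest Gfap level, at 733 CPM. Of the other astrocyte markers it was also highest in S100b (144 CPM) and Gja1 (126 CPM), and narrowly in Aldoc and Aldh1l1. It was not the highest in Slc1a2, Slc1a3 or Aqp4. The 8 astrocyte markers summed to 5254, 5172 and 3699 CPM in Ash1l het and 4990, 4234 and 4070 CPM in WT. Of these sums Slc1a2 alone made up 3471, 2905 and 2292 CPM in Ash1l het and 3453, 2832 and 2572 CPM in WT. The part of astrocytes in the S100 values was not tested.

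S100a1 and S100a13 form a head-to-head pair whose starts lie 43 bases apart. The DNA between the annotated starts of that pair is shown with that of the other 2 closely spaced pairs that could be read. Whether the annotated starts are those used in striatum was not tested. The sequences are the plus strand of chromosome 3 from RefSeq (GRCm38.p6), with CG dinucleotides in capitals.
S100a1/S100a13, chr3:90514393-90514434: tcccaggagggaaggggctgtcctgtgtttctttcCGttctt
Rps27/Rab13, chr3:90213652-90213694: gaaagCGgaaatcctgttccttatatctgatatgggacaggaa
Cks1b/Shc1, chr3:89418384-89418442: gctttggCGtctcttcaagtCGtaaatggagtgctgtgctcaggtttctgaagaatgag
On either strand, none held the GC box GGGCGG, which 16.1% of 32851 RefSeq promoters hold in the 50 bases before the start. None held the CCAAT box (8.6% of promoters), the TATA box TATAAA (3.5%) or the E box CACGTG (1.7%). Both genes of the S100 pair had positive fold changes, as did Rps27 (0.23, SE 0.32) and Rab13 (0.16, SE 0.26), while Cks1b (0.16, SE 0.50) and Shc1 (-0.22, SE 0.24) differed in sign. Rps27, a ribosomal protein gene at 1.09 to 1.54 CPM in Ash1l het and 1.08 to 1.24 CPM in WT, is uncertain, because reads of such genes can be assigned to near-identical copies elsewhere. Over the 9 head-to-head pairs with starts within 1000 bases and both genes among the members, 4 had the same sign.

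Metabolic genes, at 15, had 10 higher by sign and a median of 0.10. Pmvk, the phosphomevalonate kinase that stands upstream of Fdps in isoprenoid synthesis, had 10.7, 16.5 and 11.2 CPM in Ash1l het against 10.2, 7.83 and 11.4 CPM in WT (a log2 fold change of 0.39, SE 0.22; edgeR unadjusted p = 0.107). With single libraries left out the Pmvk value ran from 0.16, without the high Ash1l het replicate 2, to 0.51, without WT replicate 3. Apoa1bp, an epimerase that repairs damaged NADH and NADPH, had 23.3, 24.9 and 26.9 CPM in Ash1l het against 18.9, 24.7 and 21.4 CPM in WT, and Slc25a44, a mitochondrial carrier of branched-chain amino acids, stood at 0.13 (SE 0.10). In Pmvk and in Apoa1bp the groups overlapped.

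Transcription and chromatin genes split evenly, with 7 of 14 lower by sign and a median of -0.03. Mef2d, an activity-regulated transcription factor of neurons, had 258, 232 and 332 CPM in Ash1l het against 307, 333 and 311 CPM in WT. Gatad2b, a subunit of the NuRD repressor complex, had 55.7, 41.8 and 47.4 CPM in Ash1l het against 53.9, 52.3 and 76.6 CPM in WT (a log2 fold change of -0.34, SE 0.17; edgeR unadjusted p = 0.0791). In both genes the groups overlapped. The Gatad2b value was -0.14 without the high WT replicate 3 and -0.45 without Ash1l het replicate 1. Prcc, a nuclear protein of pre-mRNA splicing, and Pbxip1, a partner of PBX homeobox proteins, stood at -0.24 (SE 0.13) and 0.04 (SE 0.17).

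Genes of RNA, protein turnover and translation, a list that also holds Msto1 and Scamp3, had 9 of 12 lower by sign and a median of -0.12. Ubqln4, a shuttle for ubiquitinated proteins, Smg5, of nonsense-mediated decay, and Ssr2, of the translocon at the endoplasmic reticulum, stood at log2 fold changes of -0.18, -0.23 and -0.25, each with an SE of 0.13 to 0.16. Leaving out 1 Ash1l het library brought them to -0.04 for Ubqln4 (replicate 2), -0.12 for Smg5 (replicate 1) and -0.10 for Ssr2 (replicate 2). Without Ash1l het replicate 3 the Ubqln4 value was -0.30. The cytoskeletal list, which also holds Mtx1 and Krtcap2, had 5 of 10 lower by sign. In it Arhgef2 stood at -0.09 (SE 0.14), Tpm3, a tropomyosin, at 0.01 (SE 0.10) and Arhgef11 at -0.16 (SE 0.12). The immune list had 1 of 4 lower by sign. In it the RNA-editing enzyme gene Adar stood at 0.09 (SE 0.18), the exonuclease gene Isg20l2 at 0.08 (SE 0.14) and the semaphorin gene Sema4a at -0.10 (SE 0.15). The 21 members in no list had 11 lower by sign and a median of -0.01. Across all of these groups 0 genes were called.

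**Figure D5:**
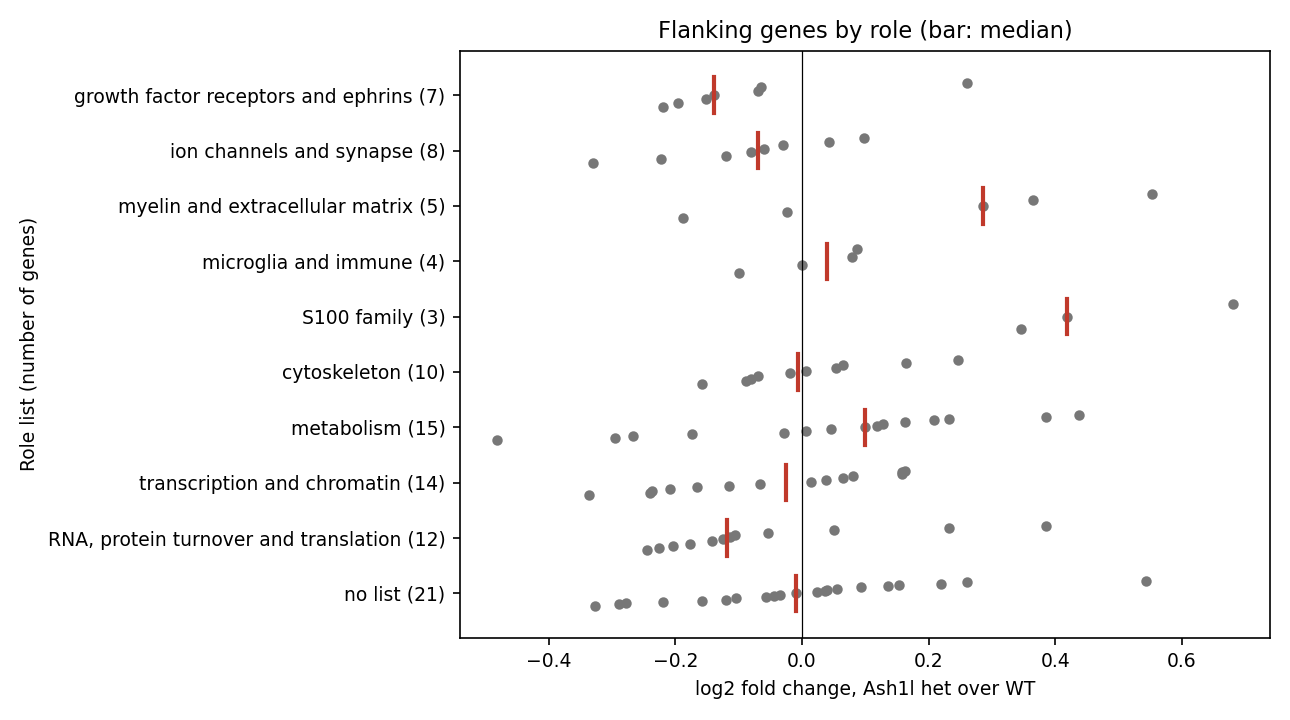
Fitted log2 fold change (Ash1l het over WT) of the 99 tested flanking genes by role list; points are genes, red bars are medians, and the number of genes is given beside each list. The S100 and the matrix lists have the highest medians, 0.42 over 3 genes and 0.29 over 5. The S100 values rest on Ash1l het replicate 2, without which they are 0.09, -0.23 and -0.09. The matrix values run from -0.19 to 0.55, the highest being Muc1, at a mean of 20.2 counts. Every list spans less than 1 log2 unit.

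At the edges of the rule, Gm43712, at a mean of 10.8 counts, was the lowest member by count, and Tsacc, at 9.67, the highest row left out. Etv3 and S100a16, at log2 fold changes of 0.01 and 0.35, were the outermost members, and Fcrls and S100a3, at 0.36 and -0.30, the next genes outside. Of the genes lying wholly within 3 Mb on each side of Ash1l and not wholly within the window, 9 had a mean of at least 10 counts. Their median log2 fold change was 0.01.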

How the data were processed

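The authors deposited raw counts for each gene side by side with FPKM, and the single-sample files repeat the counts. The submitters' processing notes name the build GRCm38 and the tools HISAT2, StringTie, edgeR, CASAVA and FastQC, without roles, versions or settings. All 34745 genes entered edgeR 4.0.16 in R 4.3.3 (quasi-likelihood test; robust dispersion, TMM, default filter with minimum count 10, genotype as the single term), and p-values were Benjamini-Hochberg adjusted over the 15267 genes tested. CPM are on the TMM scale except for the summed member level and Xist, which use library totals. The SE is the fold change over the root of the F statistic, and intervals cover 95%. Steps were tested on simulated counts. Members, role lists and tests were chosen with earlier results of these data known. Named genes were the 6 nearest on each side, called members, the 10 smallest p-values, separated members with p under 0.05, the 4 highest in FPKM and the 3 highest in FPKM of each of 9 role lists; 1 gene that this rule names is not reported here. The 9 lists hold 97 symbols, of which 78 were tested members. The lists are broad, and some genes match the name of their list only loosely. Positions are those of the deposited data, and strands and gene types are from GENCODE M21, where 99 of 100 members had the same bounds. No pair of libraries agreed within sampling noise. Alternatives were DESeq2 1.42.0, limma-voom (limma 3.58.1), RLE scaling, other filters, other windows, a replicate block and left-out libraries.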

Additional observations from a re-analysis of the deposited data

How the results depend on the processing

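The count of 0 called flanking genes held under DESeq2, limma-voom, RLE scaling, no filter, at least 1 CPM in 3 libraries, a replicate block, every left-out library, windows of 0.5, 1 and 3 Mb and a mean count of at least 100. Members with an unadjusted p under 0.05 numbered 2 with limma-voom, RLE scaling and the replicate block, 1 to 10 with single libraries left out (10 without Ash1l het replicate 3, where 10.9% of all genes lay under it), and 5 with Ash1l het replicates 1 and 2 both left out. Under that value lay 5.78% of all genes with limma-voom, 5.77% with RLE scaling and 5.22% with the replicate block. With any library but Ash1l het replicate 3 left out, the share was 3.14% to 6.42%. The count of 5 rests on 1 Ash1l het library, so nothing was drawn from it. Separated members numbered 3 in the 0.5 Mb window, against a share of 11.7% of all genes. They numbered 13 to 30 with single libraries left out and 53 with Ash1l het replicates 1 and 2 both left out. Fewer samples separate more easily (18.4% to 28.3% and 50.9% of all genes). The member median ran from -0.05 to 0.02 and the Ash1l log2 fold change from -0.41 to -0.16 with single libraries left out. The block changed no call; same-numbered libraries had correlations of deviations of 0.07, -0.08 and 0.01, so the numbers were not taken as pairs. Members under 100 kb lower by sign, counted after the data were seen, numbered 6 to 7 with single libraries left out.

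The 43 named members gave 559 refits, of which 39 changed sign, in 23 genes. Leaving out 1 library moved the log2 fold change of 37 of the 43 by over 1.5 times, the exceptions being 5830417I10Rik, Syt11, Glmp, Crtc2, Thbs3 and Slc39a1. With single libraries left out the log2 fold changes ran from -0.13 to 0.028 for Dap3, -0.024 to 0.30 for Rusc1, -0.13 to 0.011 for Clk2, -0.43 to 0.080 for Bcan, -0.12 to 0.069 for Adam15, -0.069 to 0.22 for Adar, -0.51 to 0.10 for Efna3, -0.14 to 0.065 for Kcnn3, -0.23 to 0.00047 for Arhgef2, -0.033 to 0.053 for Tpm3, -0.13 to 0.21 for Pbxip1, -0.23 to 1.00 for S100a13 and -0.085 to 0.66 for S100a16. With Ash1l het replicates 1 and 2 both left out they were 0.073 for Hcn3, 0.072 for Scamp3, 0.012 for Prcc, -0.11 for S100a1, 0.11 for Hdgf, 0.044 for Ubqln4, 0.069 for Mef2d, 0.19 for Bcan, 0.15 for Adam15, -0.16 for Isg20l2, 0.071 for Sema4a, 0.28 for Efna3, 0.028 for Arhgef11, -0.39 for Pbxip1, -0.28 for S100a13 and -0.57 for S100a16. Tpm3 was -0.00014 with DESeq2. The cause was not tested.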

Other observations

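Of 687 tested genes of the chromosome outside the window, 267 (38.9%) were lower by sign, with a median log2 fold change of 0.04. Among the members 26 of 43 on the side before Ash1l and 26 of 56 after it were lower by sign, and the difference from the rest of the chromosome was not tested. Chromosome 3 as a whole, at 41.3% lower by sign, was not the most uneven: the share ran from 40.0% on chromosome X to 54.0% on chromosome 11. Of the genes on chromosome 3 outside the window, 42 (6.11%) had an unadjusted edgeR p under 0.05, against 5.78% of all genes tested. Every Ash1l het library lay below every WT library in 30 of the 687 (4.37%, against 5.53% of all genes) and above in 57 (8.3%, against 6.18%).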
